A study of Mus musculus with 6 samples.

Results

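The nuclei described here were picked by 7 genes taken as markers of an intermediate activated microglial state. They held no UMI of 11 genes taken to mark later or neighbouring states. The rule does not show that they form such a state. A nucleus was a member when at least 2 UMIs (unique molecular identifiers, each standing for 1 captured transcript) fell on Cst7, Cd83, Lgals3bp, Lag3, Psat1, Lrguk and Tcim together, and 0 UMIs fell on Gpnmb, Adam33, Lpl, Itgax, Oasl2, Usp18, Ifit3, Top2a, Mki67, Mrc1 and F13a1. Only nuclei with at least 200 detected genes and at most 5% of their UMIs from mitochondrial genes were considered. Of 31738 such passing nuclei, 2494 were members, which is 7.86% (95% exact binomial interval 7.56 to 8.16%, counting error only), and they held 2679228 UMIs. The values that chose the members were these 18 genes, so their levels in members are given as a description and without a test.

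The nuclei came from the hippocampus of mice aged 9.5 months and were sorted for PU.1, the transcription factor that determines the myeloid lineage. There were 6 single-nucleus RNA libraries, 1 per genotype, each from a pool of 3 mice, so every p-value below rests on single pools and not on single animals. P301S/E4/TREM2+ and P301S/E4/TREM2- carried tau P301S, a mutant human tau that aggregates, with APOE4, and had TREM2 or lacked it. P301S/EKO/TREM2+ and P301S/EKO/TREM2- carried tau P301S without Apoe, and E4/TREM2+ and E4/TREM2- carried APOE4 without tau P301S. A TREM2 comparison therefore always had TREM2 present on 1 side of the same background, and the gene tests for tau set P301S/E4 against E4, with APOE4 on both sides. Where all 4 tau libraries were set against both E4 libraries, as for the mean share of members and the tau interaction, 2 of the 4 lacked Apoe, so Apoe status differed along with tau there. No library lacked both tau P301S and APOE4. Wherever 6 values follow each other, the libraries come as P301S/E4 with and then without TREM2, P301S/EKO with and without it, and E4 with and without it; 4 values are the tau libraries in that sequence. The deposited libraries held 3723 to 7338 nuclei and 3351882 to 8717000 UMIs, with a lowest UMI count per nucleus of 224 in P301S/EKO/TREM2-, 413 and 438 in the E4 libraries and 500 in the other 3. In all, 115 barcodes occurred in several libraries, and 21 members had such a barcode.

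Microglia are the resident macrophages of the brain. In the healthy tissue they express a homeostatic set of genes that includes the purinergic receptor P2ry12 and the fractalkine receptor Cx3cr1. Near protein aggregates and dying neurons they lower this set and switch on a disease-associated (DAM) programme, of which an early stage that includes Apoe, B2m and cathepsins and a later stage that includes Spp1, Itgax and Lpl are usually told apart, the later one being described as TREM2-dependent. Of the markers, Cst7 (cystatin F, an inhibitor of lysosomal cysteine cathepsins; ENSMUSG00000068129, chr2:150570415-150578944, plus strand) and Cd83 (a surface glycoprotein of activated antigen-presenting cells; ENSMUSG00000015396, chr13:43784775-43803132, plus strand) gave the nuclei their name. Lag3 (ENSMUSG00000030124, chr6:124904361-124911705, minus strand) encodes an inhibitory receptor that binds MHC class II, Lgals3bp a secreted galectin-binding glycoprotein and Psat1 an enzyme of serine synthesis. Positions are on GRCm38 from GENCODE vM21.

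The name was carried by only part of the members. Lag3 was the leading marker: 63.4% of members held at least 1 Lag3 UMI, and 15.8% held Lag3 and no other marker. Lgals3bp was found in 35.5%, Lrguk in 23.98%, Cd83 in 22.3%, Cst7 in 18.4%, Psat1 in 13.3% and Tcim in 9.70% of members. Lag3 also took 37.8% of all marker UMIs in members, against 11.97% for Cd83 and 8.90% for Cst7. In all, 930 members (37.3%) held Cst7 or Cd83: 84 held both, 375 held Cst7 without Cd83 and 471 held Cd83 without Cst7. The other 1564 met the rule without either. The most frequent marker combinations were Lag3 alone (395 nuclei), Lgals3bp with Lag3 (294), Lag3 with Lrguk (187) and Cd83 with Lag3 (174).

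Most members lay close to the threshold. Exactly 2 marker UMIs were held by 1708 members and 3 by 522, whereas 5314 nuclei without the excluded genes held 1 marker UMI and 16262 held 0. Of the members, 4 had under 220 detected genes and 23 had 4.5 to 5% mitochondrial UMIs, beside 3 nuclei just below and 10 nuclei just above these limits. A further 760 nuclei met the marker condition and were kept out by a single UMI of an excluded gene. A single marker gene carried 716 members (28.7%), and 334 (13.4%) held at least 3 different markers. These nuclei are therefore called members of the marker rule below, and no cell type is attached to them beyond microglia. That part of the label was checked on 23 microglial markers, all of which were detected in members of every library and together reached 24327 to 34029 CPM (UMIs of a gene scaled to a total of 1000000 UMIs), beside 23643 to 32411 CPM in nuclei with 0 or 1 marker UMI. The 12 T and NK cell markers gave 4 UMIs in all members.

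The makeup of the members differed between the libraries, as the plot of marker detection shows. In the order given above, 46.7%, 40.7%, 27.7%, 28.3%, 20.2% and 23.5% of members held Cst7 or Cd83. Cst7 was found in 26.4%, 22.8%, 10.2%, 8.58%, 1.83% and 1.18% of members, so that the 2 libraries without tau held 2 and 1 members with Cst7. Cd83 varied far less, from 18.3% in E4/TREM2+ to 24.9% in P301S/E4/TREM2+. Lag3 went the other way: members with Lag3 only made up 11.9%, 8.93%, 20.8%, 22.7%, 39.4% and 40.0%. A single marker carried 24.2%, 22.8%, 28.9%, 41.2%, 57.8% and 52.9% of members. Comparisons between genotypes among members are thus between sets that met the rule through different genes.

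**Figure D1:**
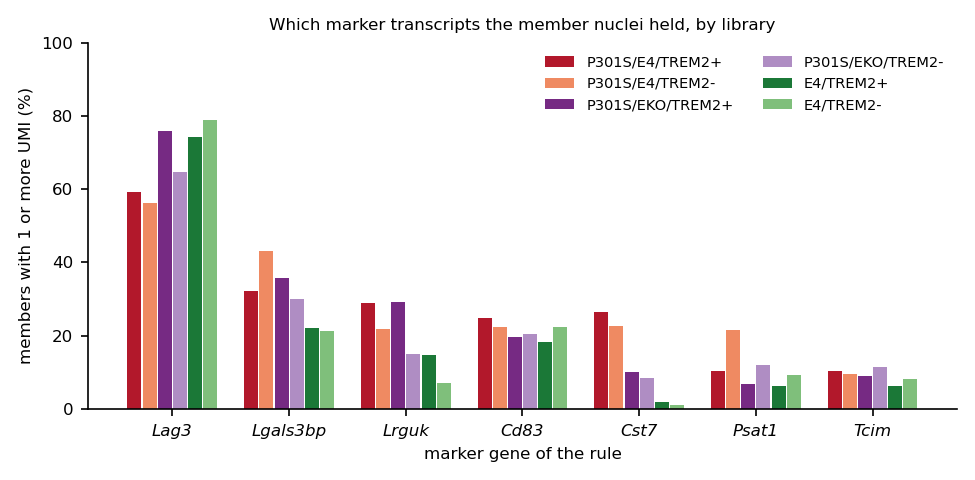
Percentage of member nuclei with at least 1 UMI of each marker gene of the rule (vertical axis, %), by marker (horizontal axis) and library (colour). Lag3 was the most frequent marker in all 6 libraries (56.2 to 78.8% of members), and Cst7 ranged from 1.18% in E4/TREM2- to 26.4% in P301S/E4/TREM2+.

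The share of passing nuclei that met the rule was 12.1%, 11.8%, 13.7%, 4.61%, 2.14% and 1.76% (747, 829, 491, 233, 109 and 85 nuclei). All 4 tau libraries were above both E4 libraries, and P301S/EKO/TREM2- had the lowest share of the tau libraries. Against the E4 library with the same TREM2 genotype, the share in P301S/E4 was 5.64-fold higher with TREM2 (95% interval 4.63 to 6.87) and 6.72-fold higher without it (5.39 to 8.38). Those intervals cover counting error only. With no condition on the excluded genes the shares were 22.4%, 22.4%, 20.2%, 5.39%, 2.28% and 1.95%. P301S/E4 was then 9.81-fold above E4 with TREM2 and 11.5-fold without it. The mean share was 10.6% ± 4.05 (SD, n = 4) in the tau libraries, 2 of them without Apoe, and 1.95% ± 0.270 (SD, n = 2) in the others, a difference of 8.61 percentage points with an exact permutation p of 0.0667, two-sided, which is the smallest that 15 arrangements allow. Without Lag3 among the markers the difference was 4.82 points and the exact permutation p was 0.133. The permutation test for TREM2 gave 6.07% ± 5.19 without TREM2 and 9.31% ± 6.26 with it (SD, n = 3 each, exact permutation p = 0.5, smallest possible 0.1).

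Within backgrounds the ratio of the TREM2- to the TREM2+ share was 0.980 (0.893 to 1.08) in P301S/E4, 0.337 (0.290 to 0.391) in P301S/EKO and 0.822 (0.621 to 1.09) in E4. These intervals too cover counting error only. Each genotype was a single pool, so variation between pools is not in them. Depth differed too: median UMIs per passing nucleus were 775, 915, 807, 569, 572 and 710, and those of members were 817, 1025, 957, 688, 755 and 832. When every nucleus was thinned to 500 UMIs and the rule applied again, which left out 1827 nuclei from P301S/EKO/TREM2-, 1488 from E4/TREM2+ and 417 in E4/TREM2-, the shares were 7.11%, 5.30%, 6.14%, 2.89%, 1.11% and 0.680%. At equal depth the TREM2- share was below the TREM2+ share in all 3 backgrounds. The ratios were 0.745 (0.651 to 0.851), 0.470 (0.370 to 0.596) and 0.612 (0.382 to 0.981). Their intervals again cover counting error only, so they describe these pools and do not test TREM2 across pools. P301S/E4 was 6.40-fold and 7.79-fold above E4 at equal depth. The exact permutation p for TREM2 was 0.4 at this depth when the 6 libraries were exchanged freely. Exchanged only within backgrounds, a test chosen after seeing the data, the 3 pairs gave an exact permutation p of 0.25 at either depth, two-sided, which is the smallest that 3 pairs allow. With no condition on the excluded genes, the thinned ratios were 0.655, 0.439 and 0.617.

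**Figure D2:**
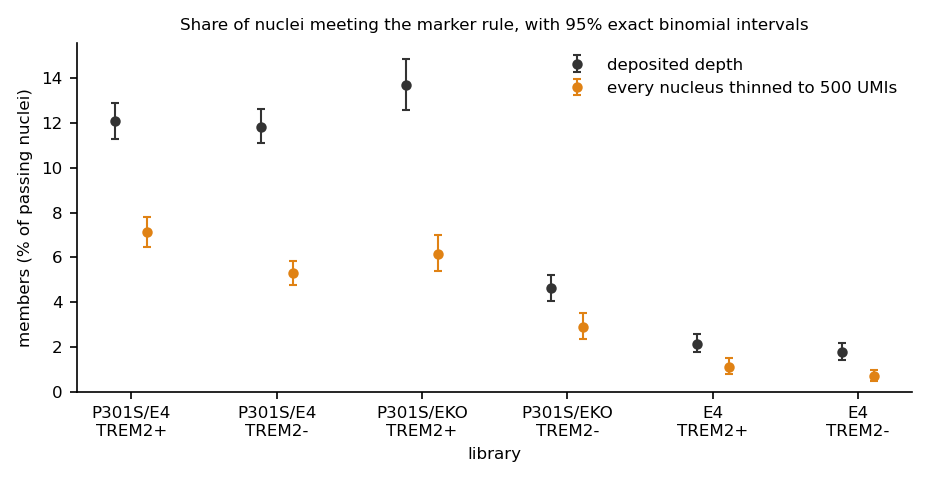
Share of passing nuclei that met the marker rule (vertical axis, %) in each library (horizontal axis), at the deposited depth (black) and after thinning every nucleus to 500 UMIs (orange). Points are shares and bars are 95% exact binomial intervals, which cover counting error only. At equal depth the tau libraries lay between 2.89 and 7.11% and the E4 libraries at 1.11% and 0.680%.

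The background for these shares was taken from 51 passing nuclei with at least 5 UMIs of a neuronal list and 0 UMIs of 8 microglial genes. Their median depth by library was 1484 to 7368 UMIs, far above that of members. None of them was a member, and 1 of them reached 2 marker UMIs. A count of 0 in 51 allows a share of up to 5.88%, which is above the member share of P301S/EKO/TREM2- and of both E4 libraries and sets no limit there. The condition of 0 UMIs of the microglial genes also leaves out neuronal nuclei that carried free microglial RNA, and the count does not cover those. Lgals3bp was found in 3 and Psat1 in 1 of these neuronal nuclei, and the other 5 markers in 0. Among members, 98 had more than 3 times the median UMIs of their library, and these were 13.8% of members in E4/TREM2+ against 2.21% of the other nuclei there. No doublet caller was run, so nuclei captured in pairs may be among them.

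In all passing nuclei, which the marker condition had not selected, all 7 marker genes rose with tau P301S on the APOE4 background. Cst7 stood at 135, 77.8, 43.9, 23.01, 1.41 and 1.99 CPM, nearly absent from both E4 libraries, and rose by 5.86 (SE 0.28, adjusted p = 1.40e-06) on the log2 scale. Cd83 stood at 130.0, 92.9, 88.03, 62.7, 28.9 and 24.7 CPM and rose by 2.00 (SE 0.16, adjusted p = 2.93e-05). Lag3 stood at 332, 226, 349, 248, 164 and 117 CPM, with both E4 libraries below all 4 tau libraries, and rose by 0.94 (SE 0.12, adjusted p = 4.77e-04), the smallest change. Lrguk rose by 3.08, Psat1 by 2.58, Lgals3bp by 2.58 and Tcim by 2.03. Of all 12967 genes fitted, 17.5% were called with tau (edgeR quasi-likelihood test, Benjamini-Hochberg adjusted p of 0.05 or less, as throughout), 7.92% rising and 9.56% falling. The 7 calls were kept without any single library. The markers were chosen with results of these libraries known, so their shared direction is not independent evidence.

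For TREM2 none of the 7 markers was called, beside 0.112% of 12515 genes (0.032% higher and 0.0799% lower), although 5 of the 7 had an unadjusted p under 0.05. Lrguk had the lowest fold change, with levels of 126, 90.8, 112, 36.9, 21.4 and 6.47 CPM and a difference on the log2 scale of -1.09 (SE 0.21, adjusted p = 0.151). Cst7 had -0.77 (SE 0.18, adjusted p = 0.263), Lag3 -0.49 (SE 0.10, adjusted p = 0.157) and Psat1 0.52 (SE 0.16, adjusted p = 0.562). Without a filter on low counts 3 of the 7 were called, with DESeq2 1, and 1 when any single tau library was left out. For APOE4 against no Apoe among the tau libraries, Cst7 rose by 1.69 (SE 0.19, adjusted p = 0.00146) and Psat1 by 0.96 (SE 0.19, adjusted p = 0.0201), beside 3.74% of 12967 genes called, 1.93% higher and 1.81% lower. Cd83 had 0.58 (SE 0.14, adjusted p = 0.0541) and Lag3 -0.09 (SE 0.12, adjusted p = 0.765). The count of 2 for APOE4 became 4 without P301S/E4/TREM2+, P301S/EKO/TREM2+ or E4/TREM2+ and 1 without P301S/EKO/TREM2-.

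Members were next compared within each library with the 21576 nuclei that held 0 or 1 marker UMI and, like the members, no UMI of the excluded genes. The 18 rule genes were left out of this fit. Few genes differed: 40 of 10131 (0.395%) were called, 22 higher (0.217%) and 18 lower (0.178%) in members. The higher genes included growth factor, innate sensing and chemokine genes, namely Csf1, Tlr2, Tank, Hif1a, Ccl4 and Cxcl10, with 7 mitochondrial and several astrocytic transcripts. The lower genes included 5 of the 16 neuronal and glial transcripts tested (Meg3, Syt1, Grin2a, Grin2b and Gria2) and the homeostatic gene Selplg.

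Csf1 (ENSMUSG00000014599, chr3:107741048-107760469, minus strand) encodes the colony-stimulating factor that microglia depend on. It stood at 182, 165, 106, 72.6, 15.1 and 9.70 CPM in members and at 164, 115, 63.4, 35.9, 9.05 and 8.58 CPM in the low-marker nuclei of the same libraries (log2 fold change 0.45, SE 0.10, adjusted p = 0.018). Members were higher in 6 of 6 libraries, although the E4 members held only 2 and 1 Csf1 UMIs. It was 0.40 without P301S/E4/TREM2- and 0.38 without P301S/EKO/TREM2+, and was not called in either case. Tlr2 (ENSMUSG00000027995, chr3:83836272-83841767, minus strand), a receptor for bacterial lipoproteins, stood at 94.1, 93.7, 131, 83.8, 52.9 and 29.1 CPM in members against 75.8, 73.1, 64.5, 42.4, 34.6 and 27.2 CPM (log2 fold change 0.56, SE 0.12, adjusted p = 0.00902). It was again higher in 6 of 6 libraries, most clearly in P301S/EKO/TREM2+, without which Tlr2 had 0.40 and was not called. Hif1a, the hypoxia-inducible transcription factor (ENSMUSG00000021109, chr12:73901375-73947530, plus strand), had 334, 306, 258, 223, 128 and 116 CPM against 275, 283, 179.8, 142, 89.2 and 74.1 CPM (log2 fold change 0.31, SE 0.07, adjusted p = 0.018). Its call was lost without P301S/E4/TREM2+ (0.32), P301S/EKO/TREM2+ (0.24) or P301S/EKO/TREM2- (0.28). Tank, an adaptor of TRAF and NF-kB signalling, was higher by 0.41 (SE 0.11, adjusted p = 0.0491), Fam46c by 0.37 (SE 0.09, adjusted p = 0.0175) and Gramd1b, a sterol transporter of the endoplasmic reticulum, by 0.33 (SE 0.09, adjusted p = 0.0492), each in 6 of 6 libraries.

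The chemokines moved less evenly. Cxcl10, an interferon-inducible chemokine (ENSMUSG00000034855, chr5:92346638-92348889, minus strand), had 24.2, 33.97, 42.7, 189.9, 0 and 0 CPM in members and 17.1, 22.8, 10.5, 16.97, 2.26 and 0.286 CPM in low-marker nuclei (log2 fold change 1.54, SE 0.25, adjusted p = 1.36e-05). The 4 tau libraries were higher in members, most of all P301S/EKO/TREM2-, where 34 UMIs were counted, and neither E4 library had a Cxcl10 UMI in members. Without P301S/EKO/TREM2- the log2 fold change of Cxcl10 was 0.90 and was not called. Ccl4, a chemokine of the CC family (ENSMUSG00000018930, chr11:83662584-83664683, plus strand), had 189.6, 157, 101, 179, 106 and 165 CPM against 151, 104, 84.9, 76.7, 129.5 and 100.1 CPM and was higher in 5 of 6 libraries (log2 fold change 0.45, SE 0.10, adjusted p = 0.00696), though without P301S/E4/TREM2- it had 0.38 and was not called. Of 8 chemokines tested these 2 were called and the other 6 ranged from 0.08 (Ccl2) to 0.43 (Ccl9), with a list median of 0.36 beside -0.01 over all genes tested.

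Among homeostatic genes, 1 of 23 tested was called between members and low-marker nuclei: Selplg, the P-selectin ligand (ENSMUSG00000048163, chr5:113818536-113832644, minus strand), at 356, 386, 523, 514, 891 and 1193 CPM in members against 338, 431, 657, 737, 1106 and 1194 CPM, lower in 5 of 6 libraries (log2 fold change -0.22, SE 0.05, adjusted p = 0.0372). It was called without P301S/E4/TREM2+ and without E4/TREM2-, and ranged from -0.23 to -0.17 without each of the other 4, where it was not. P2ry12 had a log2 fold change of -0.07, Cx3cr1 of -0.01 and Tmem119 of -0.18, none of them called. The list median was -0.05, with 19 of 23 below 0, where 5182 of all 10131 genes were below 0. Of 20 tested late DAM genes 2 were called, Csf1 and Hif1a, and the median was 0.10 with 17 above 0. Of 9 early DAM genes Ctsb, a lysosomal cysteine protease, was called (log2 fold change 0.18, SE 0.04, adjusted p = 0.018). The early DAM median was 0.13, with 8 genes above 0 and 5 at an unadjusted p under 0.05. By edgeR no gene was called of 15 MHC class I, 18 NF-kB and cytokine, 16 glycolysis, 12 serine and one-carbon, or 25 interferon genes. Of these, 3, 6, 1, 1 and 3 had an unadjusted p under 0.05, beside 664 of all 10131 genes. Their list medians were 0.10, 0.19, 0.09, -0.08 and 0.03. In these lists 13, 13, 12, 5 and 14 genes were above 0, beside 4949 of all genes. The self-test with simulated counts for this comparison recovered 80% of 2-fold and 98% of 4-fold changes. It gave every gene the same dispersion and simulated no smaller changes. The differences called for Csf1, Tlr2, Hif1a and Ctsb were all below 2-fold, so recovery at their size is not known.

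**Figure D3:**
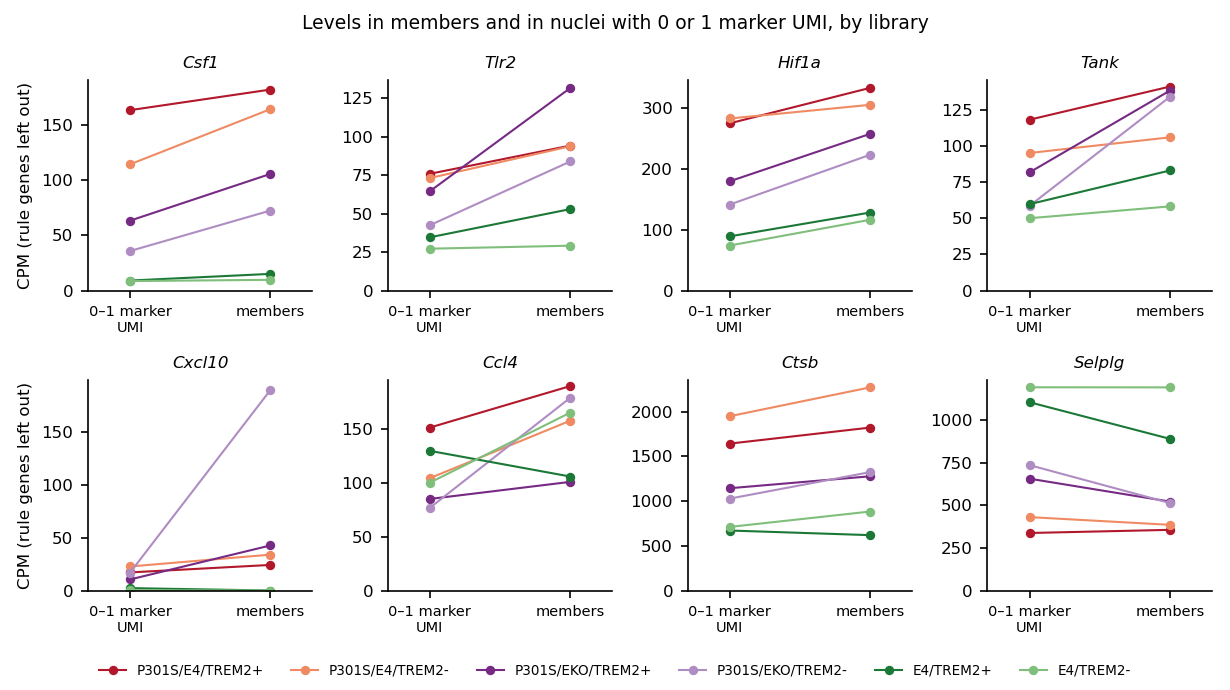
Summed level of 8 genes (vertical axes, CPM with the 18 rule genes left out) in nuclei with 0 or 1 marker UMI and in members (horizontal axis), 1 line per library. Csf1, Tlr2, Hif1a and Tank were higher in members in 6 of 6 libraries, Ctsb and Ccl4 in 5, and Cxcl10 in the 4 tau libraries; Selplg was lower in 5.

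Transcripts of other cell types moved with this comparison. Meg3, a neuronal long non-coding RNA, had 1.43, 7.20, 0, 0, 778 and 9.70 CPM in members against 96.1, 259.7, 162, 276, 447 and 1705 CPM (log2 fold change -2.61, SE 0.24, adjusted p = 1.22e-15), so members were lower in 5 of 6 libraries and higher in E4/TREM2+, where 1 member held 114 of the 139 UMIs of the 13-gene neuronal list. Slc1a2, the astrocytic glutamate transporter, named here as a marker after its values were seen, had 433, 33.97, 449, 531, 121 and 194 CPM against 197, 72.4, 293, 289, 119 and 128 CPM (log2 fold change 0.62, SE 0.09, adjusted p = 1.47e-06), and single members held 214 and 278 UMIs of the 9-gene astrocyte list in P301S/E4/TREM2+ and P301S/EKO/TREM2+. The neuronal list summed to 96.9, 42.2, 143, 257, 1050 and 165 CPM in members and to 236 to 2142 CPM in low-marker nuclei, and the astrocyte list to 370 to 1223 and 380 to 765 CPM. Nuclei with at least 5 UMIs of either list numbered 4, 1, 3, 2, 3 and 1 among members. Without them 21 genes were called, 14 higher and 7 lower, and 18 of these were among the 40. Csf1, Tlr2, Hif1a, Tank, Fam46c, Gramd1b, Cxcl10, Ccl4, Ctsb and Selplg remained called, whereas Gria2 turned from -1.11 to 0.36 and Epha5 from -1.80 to 0.02.

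The mitochondrial share and the depth also differed. The median percentage of mitochondrial UMIs was 0.216, 0.353, 0.845, 0.478, 0.946 and 1.10% in members and 0.158, 0.241, 0.600, 0.442, 0.678 and 0.864% in low-marker nuclei, and mt-Co1 was higher by 0.23 (SE 0.04, adjusted p = 1.17e-04) in 6 of 6 libraries. Median detected genes were 557, 686, 651, 479, 513 and 547 in members against 488, 568, 524, 390, 396.5 and 470. In nuclei of 750 to 1500 UMIs only 6 genes were called, and 2 of these, Cxcl10 and mt-Co1, were among the 40. Their part in the result was not tested further. The count fell to 20 without P301S/E4/TREM2+, 24 without P301S/E4/TREM2-, 21 without P301S/EKO/TREM2+ and 23 without P301S/EKO/TREM2-. DESeq2 called 3 genes.

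Nuclei with at least 500 UMIs were also grouped by their number of marker UMIs and thinned to equal depth. In P301S/E4/TREM2+ the homeostatic list gave 11.1, 11.5, 11.5 and 10.7 UMIs per 500 in nuclei with 0, 1, 2 and at least 3 marker UMIs. In P301S/E4/TREM2- these values were 11.7, 11.7, 11.8 and 11.5, in P301S/EKO/TREM2+ 14.3, 14.1, 13.2 and 13.3, and in P301S/EKO/TREM2- 14.0, 14.7, 13.3 and 11.98. The E4 libraries stood at 19.5, 20.1 and 18.2 (E4/TREM2+) and at 22.2, 22.9 and 23.5 (E4/TREM2-) for 0, 1 and 2, so E4 members had more homeostatic transcripts than the nuclei of any tau library at any marker level. The late DAM list went from 2.20 to 2.46, 2.63 and 2.77 UMIs per 500 in P301S/EKO/TREM2- and from 3.24 to 3.51, 3.55 and 3.62 in P301S/E4/TREM2-. It did not climb at each step with TREM2, at 3.93, 3.98, 3.93 and 4.34 in P301S/E4/TREM2+ and 2.77, 3.00, 3.16 and 3.08 in P301S/EKO/TREM2+. In the E4 libraries it lay between 1.90 and 2.19 for 0, 1 and 2. The early DAM list went from 4.41 to 4.78, 4.96 and 4.75 in P301S/E4/TREM2+ and from 4.86 to 5.21, 5.67 and 5.45 in P301S/E4/TREM2-. In P301S/EKO it gave 2.74, 3.02, 3.18 and 3.27 with TREM2 and 2.47, 2.98, 3.24 and 3.37 without it. For 0, 1 and 2 the E4 libraries had 1.95, 1.99 and 2.01 with TREM2 and 2.23, 2.42 and 2.38 without it. These are means over nuclei of 1 library and carry no test.

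**Figure D4:**
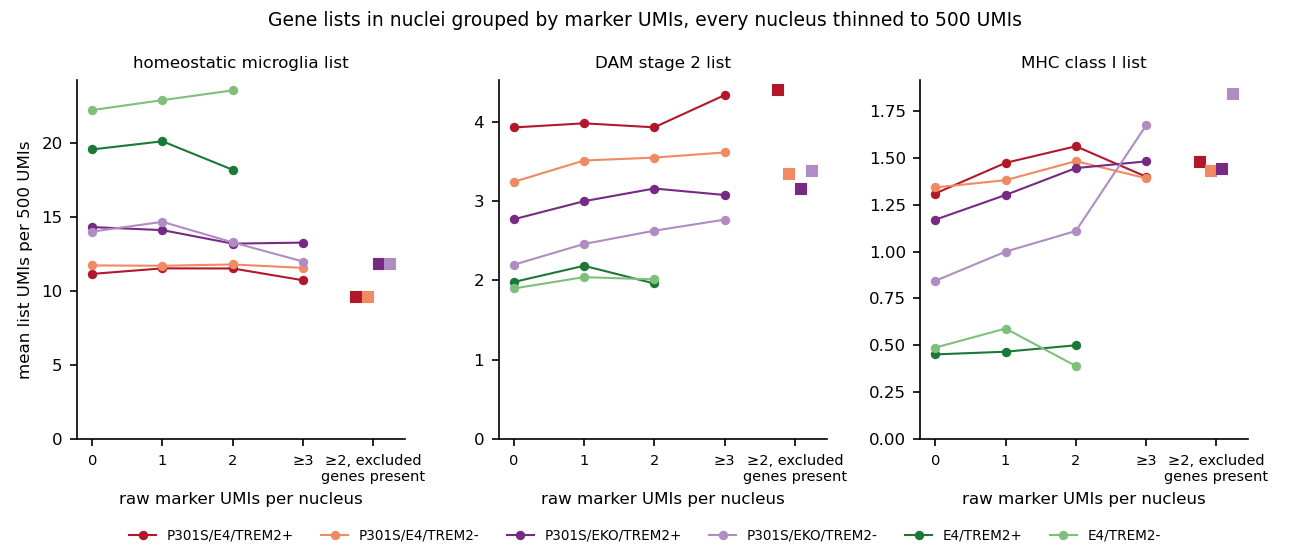
Mean UMIs of 3 gene lists per 500 UMIs (vertical axes) in nuclei grouped by raw marker UMIs (horizontal axis: 0, 1, 2 and 3 or more without the excluded genes, joined by lines; squares, 2 or more with excluded genes present), by library. In all 4 tau libraries the homeostatic list was lowest in nuclei with the excluded genes (9.58, 9.55, 11.8 and 11.8); groups under 20 nuclei are not drawn.

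The nearest neighbours of the members were the 1667 nuclei that met the marker condition and held at least 1 UMI of an excluded gene. In the tau libraries (636, 743, 233 and 39 nuclei) the excluded genes they held included Lpl, in 48.9%, 23.4%, 34.8% and 20.5%, and Oasl2, in 26.1%, 41.9%, 41.2% and 48.7%. Gpnmb was found in 24.5% and 28.9% with APOE4 but in 1.72% and 0 of 39 without Apoe. The E4 libraries had only 7 and 9 such nuclei and were not fitted. Since the neighbours were kept apart by genes of the late DAM, interferon, dividing and border-macrophage classes, other genes of those classes are given as a description of the rule. The same holds for the homeostatic list, which microglia lower when they switch on the DAM programme. It holds for MHC class II genes too, because the authors list Mrc1 and F13a1 among the markers of their MHCII group. No p-value is printed for single genes of these classes, and counts of called genes in them are no evidence about members. Only the remaining lists are the comparison, and in them genes shared with these classes, such as Ctsl, describe the rule as well.

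Against these neighbours, 141 of 8059 genes (1.75%) were called, 56 higher (0.695%) and 85 lower (1.05%) in members. Members had more homeostatic transcripts: 11 of 21 tested were higher and 0 lower, with a list median of 0.27 beside 0.01 over all genes. P2ry12 stood at 460.5, 602, 666 and 749 CPM in members of the 4 tau libraries and at 322, 489, 531 and 604 CPM in the neighbours (log2 fold change 0.37, SE 0.07), higher in 4 of 4. Gpr34, a receptor for lysophosphatidylserine, was higher by 0.39 (SE 0.07) and Cst3, the secreted inhibitor cystatin C, by 0.40 (SE 0.05), each in 4 of 4 libraries. All 3 genes were called. Of 10 complement genes the 3 C1q chains were higher, C1qa by 0.26 (SE 0.05, adjusted p = 5.47e-05). Of 12 cathepsin and cystatin genes 5 were higher, among them Ctss (0.31), Ctsl (0.32) and Ctsd (0.23). This list shares Ctsl with the late DAM genes, and cathepsins belong to the early DAM stage. Its count is therefore no evidence about members either.

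The neighbours were deeper than the members, with median UMIs of 1038.5, 1475, 1345 and 731 against 817, 1025, 957 and 688. In nuclei of 750 to 1500 UMIs, where P301S/EKO/TREM2- had under 20 neighbours and was left out, 60 of 5831 genes were called. There 3 of 20 homeostatic genes were higher and 0 lower, with a median of 0.28. Cst3 was still called (0.25), whereas P2ry12 (0.44), Gpr34 (0.30), C1qa (0.097), Ctss (0.12) and Ctsl (0.29) were not, and Ctsd turned to -0.041. By edgeR none of 9 complement genes was called at this depth.

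Of 20 late DAM genes 5 were lower and 2 (Cd9, Ctsl) higher in members. These differences describe the rule, which had removed nuclei with Lpl, Itgax or Gpnmb. Spp1, osteopontin, stood at 161, 48.4, 23.9 and 11.2 CPM against 576, 104, 48.6 and 0 CPM in the neighbours (log2 fold change -1.58, SE 0.13), lower in 3 of 4 libraries. Lgals3 was lower, at -1.12 (SE 0.33), in 4 of 4 and Lilrb4a, at -0.90 (SE 0.12), in 4 of 4. Igf1 was lower by the fit, at -0.88 (SE 0.18), and so was Fabp5, at -0.88 (SE 0.20), but Fabp5 was higher in 2 of 4 libraries. Csf1, higher in members than in low-marker nuclei, was lower than in the neighbours (log2 fold change -0.39, SE 0.11), with 313, 176, 117 and 109.8 CPM there. Apoe did not pass the test (log2 fold change -0.09, SE 0.07, adjusted p = 0.833).

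Among immune lists, 17 of 25 interferon, 3 of 5 chemokine and 3 of 6 MHC class II genes were lower in members and none was higher. The 5 chemokines were all below 0 and the MHC class II genes split into 4 below and 2 above. The called interferon genes had log2 fold changes from -2.77 (Rsad2) to -0.31 (Trim30a). The rule had removed nuclei with Oasl2, Usp18 or Ifit3. It had also removed nuclei with Mrc1 or F13a1, which the authors list as markers of their MHCII group, with log fold changes of 2.51 and 2.05. Cxcl10, which is interferon-inducible, had 24.2, 33.97, 42.7 and 189.9 CPM against 153, 223, 153 and 1125 CPM (log2 fold change -2.44, SE 0.14). Cd74, the invariant chain, was lower, at -0.49 (SE 0.10), in 4 of 4 libraries. H2-Ab1, at -0.75 (SE 0.17), and H2-Eb1, at -0.82 (SE 0.19), were lower in 3 of 4. By edgeR none of 15 MHC class I genes was called, with 4 at an unadjusted p under 0.05. Ms4a7, Dab2 and Stab1, which mark border-associated macrophages, were lower as well, at -1.95, -1.64 and -0.41, and Slc1a2 and Gfap of astrocytes were higher, at 0.56 and 0.91. The part of these other cells in the result was not tested beyond leaving out nuclei with at least 5 neuronal or astrocytic UMIs, after which 122 genes were called, with 10 homeostatic genes higher and 16 interferon genes lower. The count was 77 without P301S/E4/TREM2+ and 47 without P301S/E4/TREM2-, with 6 and 4 homeostatic genes higher.

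Against all 29244 other passing nuclei, 111 of 10971 genes (1.01%) were called, 27 higher (0.246%) and 84 lower (0.766%). The largest differences lay in classes that the excluded genes had removed from members by construction, such as the border-associated macrophage genes Cbr2 (-5.17) and Cd163 (-4.34) and the interferon gene Rsad2 (-1.89). By edgeR none of 23 homeostatic genes was called, with 8 at an unadjusted p under 0.05. Ctss (0.20), Gramd1b (0.32) and Gramd1a (0.30) were higher in 6 of 6 libraries. The count was 67 without P301S/E4/TREM2+ and 59 without P301S/E4/TREM2-.

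Among the members themselves, nuclei with Cst7 and no Cd83 were set against nuclei with Cd83 and no Cst7 in the 3 libraries that held at least 20 of each (163 and 152 in P301S/E4/TREM2+, 152 and 148 in P301S/E4/TREM2-, 39 and 86 in P301S/EKO/TREM2+). Of 3021 genes 5 were called (0.166%), 3 higher (0.0993%) and 2 lower (0.0662%) in the Cst7 nuclei. Ccl4 was lower in the Cst7 nuclei, at 135, 76.9 and 151 CPM against 368, 433 and 76.5 CPM in the Cd83 nuclei (log2 fold change -1.63, SE 0.26, adjusted p = 1.01e-06). Both P301S/E4 libraries showed this direction, and P301S/EKO/TREM2+ the opposite one with 7 and 8 UMIs. Without P301S/E4/TREM2- Ccl4 had -0.93 and was not called. Slc15a3, a lysosomal peptide and histidine transporter, was lower, at -0.92 (SE 0.22, adjusted p = 0.0241), in 2 of 3 libraries. Mt1, a metallothionein, was higher (log2 fold change 1.84, SE 0.26, adjusted p = 5.56e-09), but 154 of its 212 UMIs came from the Cst7 nuclei of P301S/E4/TREM2+, where 2 nuclei held at least 5 astrocyte UMIs. Fth1, ferritin heavy chain (0.71), and Gm42418 (0.28) were the other calls. Without nuclei of at least 5 neuronal or astrocytic UMIs 2 genes were called and Fth1 turned to -0.18. The count was 1 without P301S/E4/TREM2+ and 0 without P301S/E4/TREM2-. By edgeR 0 of 19 homeostatic genes were called, with 2 at an unadjusted p under 0.05.

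Genotype was compared among members with an additive fit of background and TREM2, which leaves 2 residual degrees of freedom. The labels were checked first. Trem2 stood at 1260.3, 646, 1029.8, 447, 936 and 398 CPM in members and fell without TREM2 (log2 fold change -1.11, SE 0.16, adjusted p = 2.40e-04), and transcripts of the gene were still counted in the TREM2- libraries. Apoe stood at 1105, 821, 13.7, 16.8, 128 and 87.3 CPM, with 8 and 3 UMIs in the P301S/EKO members.

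Few genes passed the test for TREM2 within members. In addition to Trem2, 4 of 6297 genes were called, so that the total of 5 was 0.0794% (0.0159% higher and 0.0635% lower). Fgr, a Src-family kinase of myeloid cells (ENSMUSG00000028874, chr4:132974095-133001910, plus strand), had 191, 59.7, 155, 27.9, 0 and 19.4 CPM and fell by 1.77 (SE 0.31, adjusted p = 0.00881). The fall was seen on both tau backgrounds, and the E4 members held 0 and 2 UMIs. Kcnj2, an inward-rectifier potassium channel, had 119.8, 26.8, 54.6, 22.3, 22.7 and 0 CPM (log2 fold change -2.05, SE 0.38, adjusted p = 0.011), and Ccdc80 61.3, 15.4, 66.6, 5.59, 52.9 and 19.4 CPM (log2 fold change -2.16, SE 0.43, adjusted p = 0.0251), each lower without TREM2 on all 3 backgrounds. Members of P301S/EKO/TREM2- and of the E4 libraries held only 179543, 132650 and 103236 UMIs of all genes. The lowest levels of Kcnj2 and Ccdc80 there therefore rest on very few UMIs. Ccr6, a chemokine receptor named here because it completes the 5 and chosen after its values were seen, had 2.85, 81.3, 0, 67.03, 37.8 and 9.70 CPM and rose (log2 fold change 3.49, SE 0.68, adjusted p = 0.0226), with 79 of 99 UMIs in P301S/E4/TREM2-. Of 21 homeostatic genes 0 were called by edgeR, with 4 at an unadjusted p under 0.05 (median 0.16 beside 0.01 over all genes). Of 18 late DAM genes only Trem2 itself was called. The rule had, however, removed every nucleus with a UMI of Lpl or Itgax, which are late DAM genes. In all passing nuclei Lpl stood at 368, 100.3, 113, 33.7, 11.5 and 4.98 CPM, lower without TREM2 on all 3 backgrounds. Members were thus selected on genes whose level differed with TREM2 genotype. Whether the late DAM programme depended on TREM2 was therefore not tested by comparing members. The self-test for the TREM2 comparison among members recovered 52% of 2-fold and 88% of 4-fold changes. The count was 1 without P301S/E4/TREM2+, 0 without P301S/E4/TREM2-, 23 without P301S/EKO/TREM2+, 35 without P301S/EKO/TREM2-, 10 without E4/TREM2+ and 9 without E4/TREM2-.

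More genes passed for tau. Between P301S/E4 and E4 members 192 of 6992 genes (2.75%) were called, 102 rising (1.46%) and 90 falling (1.29%). Homeostatic genes fell: 15 of 22 tested fell and 0 rose, with a list median of -1.03 beside 0.0030 over all genes. Selplg stood at 356, 386, 523, 514, 891 and 1193 CPM, with no overlap between the P301S/E4 and the E4 libraries and the P301S/EKO libraries in between, and fell by 1.51 (SE 0.19, adjusted p = 5.36e-05). P2ry13 had 179.6, 212, 188, 246, 362 and 631 CPM (log2 fold change -1.35, SE 0.23, adjusted p = 7.70e-04), Siglech, a sialic acid-binding lectin, had -1.17 (SE 0.18, adjusted p = 2.85e-04) and Cst3 -1.13 (SE 0.18, adjusted p = 4.40e-04). Upk1b (-2.64) and the fructose transporter Slc2a5 (-1.89) fell most.

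Early DAM genes rose in 7 of 9 cases and late ones in 8 of 20, with none falling. Apoe rose by 3.12 (SE 0.26, adjusted p = 5.46e-08) on the log2 scale, and lysozyme, Lyz2, stood at 570.3, 523, 280.1, 218, 113 and 97.03 CPM and rose by 2.35 (SE 0.27, adjusted p = 1.18e-05). H2-D1 rose by 1.84, Timp2 by 1.52 and Ctsb by 1.42. Csf1 rose by 3.73 (SE 0.51, adjusted p = 8.85e-05), from 3 UMIs in E4 members to 288 in P301S/E4 members, a ratio of summed levels of 13.5 (95% interval 4.58 to 65.9, counting error only). The receptor tyrosine kinase Axl had 0 UMIs in E4 members and 137 and 89.5 CPM in P301S/E4 members, at least 8.59-fold higher against a floor of 3 UMIs over both E4 libraries. On the same floor the inhibitory receptor Cd300lf was at least 10.9-fold and Spp1 at least 7.51-fold higher. Lilrb4a rose by 2.64 and the tetraspanin Cd63 by 1.86.

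Of 15 MHC class I genes 5 rose: H2-K1 at 709, 717, 668, 430.1, 166 and 116 CPM (log2 fold change 2.31, SE 0.26, adjusted p = 1.14e-05), H2-D1, B2m (1.32), and H2-Q7 and H2-Q6, which had 0 UMIs in E4 members and were at least 6.80-fold and 5.77-fold higher. The H2 genes are near-identical in sequence, so reads could have been split between them. Of 14 lipid genes Apoe, Acaca (1.86), Soat1 (1.48) and Abca1 (1.01) rose and Abca9 (-1.05) fell. Interferon genes rose in 3 of 20 cases, Ifi204 by 3.62 (SE 0.49, adjusted p = 6.23e-05), Oas2 by 3.51 and Ifi207 with 0 UMIs in E4 members. Complement C4b rose by 4.14 (SE 0.82, adjusted p = 0.00357), Fgr by 3.90 and Cd22, an inhibitory sialic acid-binding lectin, by 3.18. Of 12 glycolysis genes Pfkfb3 rose (1.65) and of 15 NF-kB genes Tnfaip2 (1.52). The immediate-early gene Btg2 (-1.62), the endotoxin co-receptor Cd14 (-1.15) and the Wnt effector Tcf7l2 (-1.10) fell.

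E4 members were few, 194 nuclei with 235886 UMIs, and mostly chosen by Lag3. With Lag3 left out of the markers E4/TREM2- had 19 members, under the 20 needed, and dropped out of the fit, so that setting changed both the markers and the E4 libraries used. Then 17 genes were called, 13 of them among the 192, and 0 of 21 homeostatic genes fell (median -0.57), while 4 of 9 early DAM genes still rose. The count was 68 without E4/TREM2+ and 91 without E4/TREM2-, with 10 and 7 homeostatic genes still falling. It was 266 without nuclei with at least 5 neuronal or astrocytic UMIs. The self-test for this comparison recovered 24% of 2-fold and 68% of 4-fold changes.

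**Figure D5:**
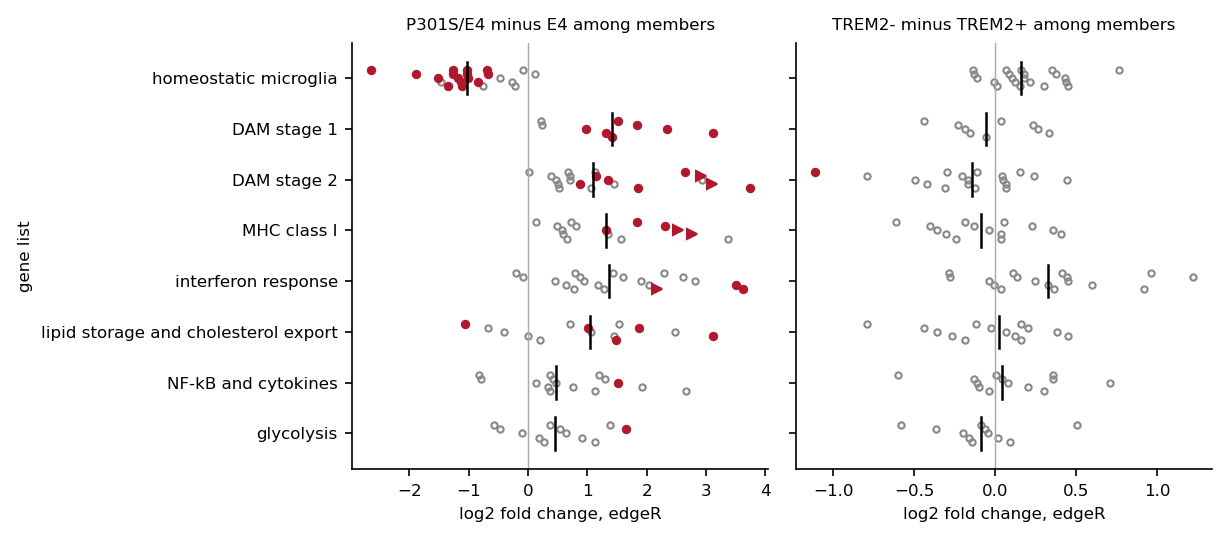
log2 fold changes (horizontal axes, edgeR) of the genes of 8 lists (vertical axis) among members, P301S/E4 minus E4 (left) and TREM2- minus TREM2+ (right, on a narrower scale); filled red points passed an adjusted p of 0.05, open points did not, black bars are list medians, and triangles are genes with 0 UMIs in E4 members drawn at their lower bound. The homeostatic median was -1.03 for tau and 0.16 for TREM2.

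APOE4 against no Apoe in tau members gave 16 of 6992 genes (0.229%), 7 higher (0.100%) and 9 lower (0.129%) with APOE4. Apart from Apoe (log2 fold change 6.14, SE 0.30, adjusted p = 2.79e-13), Spp1 rose by 2.66 (SE 0.41, adjusted p = 0.00204), at 161, 48.4, 23.9 and 11.2 CPM in the 4 tau libraries. Lyz2 rose by 1.13 (SE 0.20, adjusted p = 0.00668), and Acaca, the rate-limiting enzyme of fatty acid synthesis, by 1.42 (SE 0.31, adjusted p = 0.0453). The motor protein gene Myo5a rose by 1.40, the cation channel Trpm2 by 1.07 and Ms4a7 by 4.30. Camk2a (-2.32) and Atp1b1 (-1.59), which neurons express strongly, and mt-Nd1 (-1.04) were lower. Without nuclei with at least 5 neuronal or astrocytic UMIs Camk2a had -0.39 and was not called, and 54 genes were called in all. By edgeR none of 22 homeostatic genes was called, with 6 at an unadjusted p under 0.05 and a median of -0.21. The tau and APOE4 comparisons share the P301S/E4 libraries. The count was 49 without P301S/E4/TREM2+, 38 without P301S/E4/TREM2-, 48 without P301S/EKO/TREM2+, 39 without E4/TREM2+ and 31 without E4/TREM2-.

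Whether the difference between members and low-marker nuclei depended on genotype was tested directly. For TREM2 5 of 11079 genes were called (0.0451%) and for tau 2 of 11675 (0.0171%), all of them neuronal transcripts such as Meg3 and Snhg11. By edgeR none was called once nuclei with at least 5 neuronal or astrocytic UMIs were left out, with 372 and 643 genes at an unadjusted p under 0.05, and DESeq2 called none on all nuclei. Csf1, Tlr2, Hif1a and Cxcl10 were thus not among the genes whose difference varied with TREM2 or tau by this test, whose self-test recovered 42% (TREM2) and 12% (tau) of 2-fold changes, and 72% and 47% of 4-fold changes.

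The authors' deposited marker table listed 1 of the 7 markers, Cd83, in the group named Inflam, with a log fold change of 1.51. In the authors' deposited table of TERM nuclei, a microglial state named by them, against homeostatic nuclei, Cd83 had 0.82, Cst7 0.77, Psat1 0.76, Lgals3bp 0.72, Lrguk 0.72, Lag3 -0.52 and Tcim 0. The adjusted p in the authors' deposited table was 0.0855 for Cst7 and 1 for Psat1 and Tcim, and between 8.12e-05 and 0.0378 for the other 4. Gpnmb, which the rule excluded, had 4.85 in that deposited table of the authors.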

How the data were processed

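Counts of UMIs per gene and nucleus were deposited by the authors as 6 raw matrices, made with Cell Ranger 3.0.1 (per the file headers) on mm10 (per the submitters' processing notes) from 10x 3.1 libraries, with 31053 features. The authors' deposited tables hold log fold changes, read here as a score whose log base is not given in the sources used here, and p-values computed over nuclei; they were only quoted. The members and gene lists were chosen with earlier results of these data known. No column of another sample was present (0).

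UMIs were summed per library and set of nuclei; a library with under 20 nuclei in a set was left out of that fit. The 18 rule genes were left out except in the fits of all passing nuclei. edgeR 4.0.16 (R 4.3.3, limma 3.58.1) was used with TMM factors, filterByExpr, the quasi-likelihood test and Benjamini-Hochberg adjustment, calling genes at 0.05, with library as block between sets, and DESeq2 1.42.0 as an alternative. The SE is the log2 fold change divided by the square root of F. Depth was 103236 to 973665 UMIs per library in members. The fits were tested on simulated data with the same dispersion for every gene and with 2-fold and 4-fold changes only. No doublets were called. Named genes were the 18 rule genes, Trem2 and Apoe, up to 4 called genes per list, and called genes with the highest and lowest fold changes: 15 each way per comparison of sets (at least 200 UMIs, 1 direction in every library), and 8 each way per genotype or Cst7 against Cd83 comparison (at least 100 UMIs). Other list members and cell type markers are named as examples, after their values were seen. All 170 named genes were matched to GENCODE vM21. Some of the genes measured are not reported here, and the counts of single-gene values over the alternatives leave them out. Alternatives were other normalization, filters, tests, thresholds, depths and markers, and leaving out each library.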

Additional observations from a re-analysis of the deposited data

Results flagged for a closer look

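The difference between members and nuclei with 0 or 1 marker UMI differed between TREM2 genotypes for 5 genes, all lower in TREM2- relative to TREM2+ by the interaction term of the edgeR quasi-likelihood fit. The log2 values were -4.94 for Meg3 (adjusted p = 1.07e-33), -4.78 for Snhg11, -10.07 for Adarb2, -2.02 for Gria2 and -8.41 for Mir124a-1hg. Between tau and no-tau libraries Meg3 had -4.60 and Snhg11 -3.66. All 5 are expressed by neurons. In E4/TREM2+ the members held 103 Meg3, 57 Snhg11, 18 Adarb2, 9 Mir124a-1hg and 13 Gria2 UMIs, and in E4/TREM2- members they held 1, 1, 0, 0 and 0, while the low-marker nuclei of E4/TREM2- held 5964, 2726, 155, 122 and 752. A single member of E4/TREM2+ held 114 UMIs of the neuronal list. Without E4/TREM2+ 1 gene was called for TREM2 and Meg3 stood at 1.25, and without nuclei with at least 5 neuronal or astrocytic UMIs edgeR called 0 genes in either comparison, with 372 and 643 at an unadjusted p under 0.05. Among the 4 tau libraries no library stood apart by Dixon's test in any of 9 measures (the member share at both depths and the CPM of each of the 7 markers). With 4 values that test can flag only a very extreme library.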

How the results depend on the processing

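Counts of called genes (numbers below) depended on the processing more than directions did. In the order of the report the counts were 111 (members against all other nuclei), 40 (members against low-marker nuclei), 141 (members against nuclei with excluded genes), 5 (TREM2), 192 (tau), 16 (APOE4), 5 (the TREM2 interaction), 2 (the tau interaction), 5 (Cst7 against Cd83 nuclei), 0 (the 7 markers by TREM2) and 2 (the 7 markers by APOE4). Without a filter on low counts they were 177 (members against all other nuclei), 16 (TREM2), 50 (APOE4), 16 (Cst7 against Cd83 nuclei), 3 (the 7 markers by TREM2) and 5 (the 7 markers by APOE4). With DESeq2 they were 30 (members against all other nuclei), 3 (members against low-marker nuclei), 26 (members against nuclei with excluded genes), 1 (TREM2), 69 (tau), 1 (APOE4), 0 (the TREM2 interaction), 0 (the tau interaction), 0 (Cst7 against Cd83 nuclei) and 1 (the 7 markers by TREM2). With members of at least 3 marker UMIs they were 47 (members against all other nuclei), 20 (members against low-marker nuclei), 61 (members against nuclei with excluded genes), 10 (TREM2), 8 (APOE4), 0 (the TREM2 interaction) and 3 (Cst7 against Cd83 nuclei). In nuclei of 750 to 1500 UMIs they were 53 (members against all other nuclei), 6 (members against low-marker nuclei), 60 (members against nuclei with excluded genes), 2 (TREM2), 49 (tau), 2 (APOE4), 0 (the TREM2 interaction), 1 (the tau interaction) and 0 (Cst7 against Cd83 nuclei). With Lag3 left out of the markers (chosen after seeing the data) they were 60 (members against all other nuclei), 75 (members against nuclei with excluded genes), 19 (TREM2), 17 (tau), 10 (APOE4) and 7 (the tau interaction). Without the library block they were 4 (members against all other nuclei), 0 (members against low-marker nuclei) and 4 (members against nuclei with excluded genes). Without nuclei with at least 5 neuronal or astrocytic UMIs (chosen after seeing the data) they were 21 (members against low-marker nuclei), 8 (TREM2), 54 (APOE4), 0 (the TREM2 interaction), 0 (the tau interaction) and 2 (Cst7 against Cd83 nuclei). With DESeq2 size factors it was 2 (Cst7 against Cd83 nuclei). Leaving out each library in turn gave 59 to 125 (members against all other nuclei), 20 to 38 (members against low-marker nuclei), 47 to 166 (members against nuclei with excluded genes), 0 to 35 (TREM2), 68 to 251 (tau), 18 to 49 (APOE4), 1 to 9 (the TREM2 interaction), 2 to 4 (the tau interaction), 0 to 5 (Cst7 against Cd83 nuclei), 0 to 1 (the 7 markers by TREM2) and 1 to 4 (the 7 markers by APOE4), 7 to 7 for the 7 markers by tau, and shares differing by 7.56 to 10.6 points for tau and -6.82 to -1.04 for TREM2. Over single genes and alternatives, 1998 values kept direction and side of the threshold, 842 kept direction and lost the call, 20 gained it and 27 changed sign. The log2 values with changed sign follow. For the TREM2 interaction, Meg3 at -6.91 to 1.25 (leaving out each library) and 0.12 and 1.23 and 1.57. For the tau interaction, Snhg11 at -5.46 to 1.81 (leaving out each library) and 7.42 and 0.74, Meg3 at -6.50 to 1.81 (leaving out each library) and 6.54, Tshz2 at 6.40. For Cst7 against Cd83 nuclei, Fth1 at -0.14 to 1.18 (leaving out each library) and -0.45 and -0.40 and -0.18, Gm42418 at -0.32 and -0.0057. For TREM2 in all nuclei, Tcim at -0.38 to 0.16 (leaving out each library), Lgals3bp at -0.38 to 0.012 (leaving out each library). For APOE4 in all nuclei, Tcim at -0.0010 to 0.74 (leaving out each library). For members against all other nuclei, mt-Nd2 at -0.0045, mt-Co3 at -0.056, Gria2 at 0.46. For members against low-marker nuclei, Gria2 at 0.36, Epha5 at 0.021. For members against nuclei with excluded genes, Ctsd at -0.041. The cause of these changes was not tested. The tau comparison and the tau interaction could not be fitted with at least 3 marker UMIs, since E4 members were under 20 nuclei. No pairing by replicate number was possible, because each group had 1 library. Library was the block between sets of nuclei and background was a term for TREM2. For the member share the TREM2 libraries were also exchanged within backgrounds, as 3 pairs. Libraries under 20 nuclei in a set left the fits: E4/TREM2- without Lag3, both E4 libraries with at least 3 marker UMIs, and P301S/EKO/TREM2- against nuclei with excluded genes under these settings and in nuclei of 750 to 1500 UMIs. Depth limits all counts: E4 members held 132650 and 103236 UMIs.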
